A study of Mus musculus with 2 samples.

Results

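The genes described here are 7 that act in the capture, rolling and homing of blood cells: Selp, Selplg, Cd44, Cd177, Pecam1, Cd47 and Cd9. They were taken by symbol, by a rule that names them and sets no threshold on a value, from 21461 nuclear protein-coding genes, and all 7 had a row in both libraries. Total RNA was sequenced from 2 libraries of primary cells that the labels call megakaryocytes, the marrow cells that release platelets. The source mice were C57BL/6J males, adult at 5 to 6 weeks of age, with no treatment or engineered allele named, and the libraries are biological replicates 1 and 2 of a single group. Both list the same donor, and nothing says whether they came from separate animals, so the spread between them may be partly technical. Ribosomal RNA was removed from 100 ng of RNA before ScriptSeq library preparation, and the stated size range was 221 to 1000 nucleotides in library 1 and 200 to 1000 in library 2. Of the isolation protocol, its title alone was used here, and it speaks of erythroid cells as well as megakaryocytes. With 1 group there was no contrast of conditions, so genes were compared with each other and library 1 with library 2.

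Selectins are lectins on vessel walls, platelets and leukocytes that slow passing cells by binding sugars on mucin-like proteins. P-selectin, the product of Selp, is stored in platelet alpha granules and in endothelial granules, and its main leukocyte partner is PSGL-1, the product of Selplg. CD44 binds hyaluronan and, when suitably glycosylated, E-selectin. PECAM-1 (Pecam1) and CD177 take part in leukocyte passage through endothelium, CD47 is the ligand of the inhibitory receptor SIRP alpha, and CD9 is a tetraspanin that organises integrins in the membrane.

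Summed expected counts, the estimated reads per gene, were 42703213 in library 1 and 50532821 in library 2. The label was checked against marker genes. Of 14 megakaryocyte markers, Selp among them, 2 reached 1 TPM (a level of transcripts scaled by length and by library) in both libraries, and the list had a sum of 4.96 TPM in library 1, against 7.12 TPM in library 2. Gp5 and Gp6 had 0 counts in both, and Pf4 had 0 in library 1 and 3 in library 2. All 12 neutrophil markers reached 1 TPM in both libraries, with sums of 14613.3 and 13863.5 TPM, as did all 8 monocyte markers, with sums of 7736.42 and 10128.4 TPM. None of 10 endothelial markers did so, and Esam, Emcn, Tek and Robo4 had 0 counts in both. Of 8 erythroid markers 4 reached 1 TPM in both, with sums of 46.01 TPM in library 1 and 25.25 TPM in library 2. Of 6 B cell markers 2 did, with sums of 86.37 and 93.13 TPM, of which Ighm held 83.11 and 88.8 TPM. Of 7 T and NK cell markers 4 did, with sums of 30.44 and 17.29 TPM. These markers go against the label, so the samples are called the libraries labelled megakaryocyte. In such bulk RNA, fewer cells of a type and less RNA per cell cannot be told apart, and the part of any one cell type in the levels below was not tested.

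In the libraries labelled megakaryocyte, the platelet and endothelial selectin Selp was the lowest of the 7 genes, and 6 genes stood well above it. From high to low the order was Cd177, Cd44, Selplg, Cd47, Cd9, Pecam1 and Selp, and it was the same in both libraries. For every pair of neighbours in that order the ranges of the 2 libraries did not overlap. The order was not tested. All coding genes had a median of 0.28 TPM, and 9100 of them (42.4%) reached 1 TPM in both libraries. Of the 7 genes, 6 did so, and Selp did in neither. TPM here is over all rows of the tables. Rescaled to nuclear protein-coding genes alone, Selp stood at 1.33 in library 1 and 2.05 in library 2, above 1 in both. That rescaling raises every coding gene of a library by the same factor, so ranks within a library do not change.

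**Figure D1:**
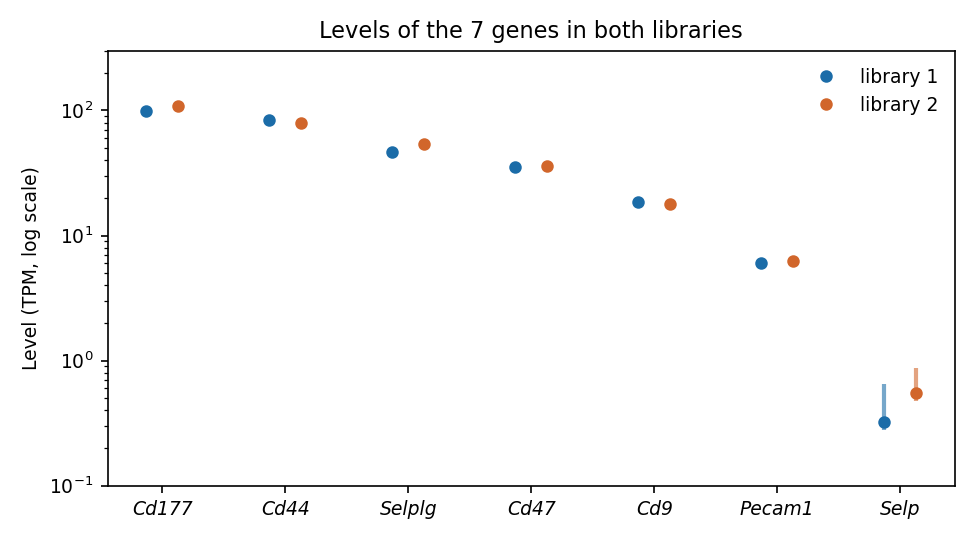
Level of each gene in TPM on a log axis, with one point per library and lines for the deposited TPM intervals, whose level is not stated. Cd177 lies highest at 99.1 and 107.7 TPM, and Selp lies below 1 TPM in both libraries.

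Selp encodes P-selectin (mm10 chr1:164115264-164150026, plus strand). It had 38 counts and 0.32 TPM in library 1, and 73 counts and 0.55 TPM in library 2, a mean of 0.435 ± 0.163 TPM (SD, n = 2). It ranked 10336 of the 21461 coding genes. The deposited interval of library 1 ran from 0.279 to 0.646 TPM. It overlapped that of library 2, which ran from 0.477 to 0.871 TPM.

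All the Selp reads were assigned to Selp-202, a transcript that the annotation types as retained intron and gives no coding sequence. Its share of the gene was 100% in library 1 and 100% in library 2. The coding transcript Selp-205 had 0 counts in both, where a limit of 3 counts leaves room for 0.00932 TPM in library 1 and for 0.00822 TPM in library 2. That limit covers counting error only and takes the assignment of reads to transcripts as deposited. The deposited posterior mean shares, which spread reads more evenly, gave Selp-202 73.8% in library 1 and 83.4% in library 2, and Selp-205 0.91% and 0.57%. Among 8178 coding genes with several transcripts and at least 0.1 TPM in both libraries, 47 (0.575%) had all their coding transcripts at 0 in both. Among the 1151 of these under a mean of 1 TPM, 26 (2.26%) did.

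Selp-202 is 1392 bases in 4 exons near the 3′ end of the gene. Of these, 1199 bases also lie in exons of Selp-205, 203 of them coding, and the other 193 are intronic. It lacks 12 upstream exons of Selp-205 and the first 2101 bases of the Selp-205 coding sequence. The 2 sequences below show where the transcripts part. The first is chr1:164144865-164144924 on the plus strand, where Selp-202 reads from the intron into exon 13. The second joins exon 12 to exon 13 in Selp-205 and spans chr1:164144050-164144924. Both come from the GENCODE M21 transcripts on mm10, and capitals mark exon 13.
Selp-202: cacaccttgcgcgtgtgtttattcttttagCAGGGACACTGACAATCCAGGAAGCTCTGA
Selp-205: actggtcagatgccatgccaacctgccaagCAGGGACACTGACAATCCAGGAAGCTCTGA

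Antisense genes overlap this end of Selp, and no source used here says whether reads were counted by strand. Gm16548 shares 438 bases with the last exon of Selp-202 and had 16 counts in library 1 and 54 in library 2. Gm16587 overlaps the gene but no exon base of Selp-202, and had 44 counts in library 1 and 89 in library 2. Without strand, reads of these genes and of Selp cannot be told apart where they overlap, so the Selp level is uncertain. Both antisense genes, like Selp, had the higher raw count in library 2.

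Selplg, the gene of the P-selectin ligand PSGL-1 (chr5:113818536-113832644, minus strand), was high. It had 46.69 TPM (11134 counts) in library 1 and 54.31 TPM (14657 counts) in library 2, a mean of 50.5 ± 5.39 TPM (SD, n = 2), rank 745. Per length, Selplg stood at 146 times Selp in library 1 and 98.7 times in library 2. The deposited tables list 1 Selplg transcript, Selplg-201, which took 100% in both libraries, while the later annotation lists 6. That transcript is 2604 bases in the deposited tables and 1855 in M21, so its level per length depends on the annotation used.

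The Selplg coding sequence holds the tandem repeats that carry the many O-linked sugars of PSGL-1. A search for neighbouring units of 30 bases with at least 21 identical bases found 11 units, 330 bases in all, from codon 130 to codon 239 of 417. They make up 26.4% of the coding sequence. Units 3, 4 and 5 are identical to each other, and a read that lies within them cannot be assigned to one. Units 1, 3, 7 and 11, the ends and 2 inner copies, are shown from the minus strand of mm10 as examples. Unit 1 lies at chr5:113819827-113819856 and unit 11 at chr5:113819527-113819556. Capitals mark bases that differ from the commonest base at that place over the 11 units; at the second base c and t were equally common and c was taken.
Selplg unit 1: acCTCAgTagagaccGTCcaAccagcaTcc
Selplg unit 3: aTggaggcagagacctcgcagccagcaccc
Selplg unit 7: aTggaggcagaCacctcAAagccagcaccc
Selplg unit 11: acggaggcagagacctcAAaAccagcaccc

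Cd44, the hyaluronan receptor and E-selectin ligand carrier (chr2:102811141-102901665, minus strand), had 83.89 TPM (27632 counts) in library 1 and 79.52 TPM (30109 counts) in library 2. The mean was 81.7 ± 3.09 TPM (SD, n = 2), rank 440. It was 1.80 times Selplg in library 1 and 1.46 times in library 2.

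The tables list 9 Cd44 transcripts, 8 of them coding, and coding transcripts held 90.2% of the Cd44 TPM in library 1 and 91.0% in library 2. The median coding share over the 8178 genes was 90.5%. Cd44 has 10 variable exons between its constant exons, numbered here along the gene, whose inclusion lengthens the stalk of the protein. The short form Cd44-203, with no variable exon and 365 codons, led by TPM with 50.96% (42.8 TPM) in library 1 and 47.06% (37.4 TPM) in library 2. Cd44-207, with variable exons 5, 6, 8, 9 and 10 and 577 codons, followed with 34.2% (28.6 TPM) in library 1 and 38.5% (30.6 TPM) in library 2. Of the coding TPM, forms with any variable exon held 43.5% in library 1 and 48.3% in library 2.

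The order of these forms depends on the unit. By expected counts Cd44-207 led, with 13841 counts in library 1 and 16788 in library 2, against 11241 and 11139 for Cd44-203. Cd44-207 is 5045 bases long and Cd44-203 is 2848. The last exon of Cd44-207 runs 1406 bases beyond that of Cd44-203 (chr2:102811141-102812546), and Cd44-201 holds them as well, while Cd44-202, with 18.31 counts in library 1 and 0 in library 2, holds 17 of them. The tables give no counts per exon, so reads in that stretch cannot be told apart from reads in the variable exons, and inclusion of the variable exons themselves was not tested. The noncoding Cd44-209, which keeps 1122 bases of an intron, held 9.76% in library 1 and 8.98% in library 2. Cd44-206, with variable exon 10 alone, held 2.94% and 4.26%, and Cd44-201, with all 10, held 1.90% and 0.68%.

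The junctions after constant exon 5 distinguish these forms and are shown for 3 of them, on the minus strand of mm10 from the M21 transcripts. Each starts at chr2:102853044 and reads down to 102828581 in Cd44-203, 102831507 in Cd44-206 and 102842348 in Cd44-207. Lower case is the end of exon 5 and capitals mark the exon that follows it.
Cd44-203: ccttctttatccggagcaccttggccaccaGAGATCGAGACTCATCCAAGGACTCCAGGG
Cd44-206: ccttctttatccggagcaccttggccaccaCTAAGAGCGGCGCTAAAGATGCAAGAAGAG
Cd44-207: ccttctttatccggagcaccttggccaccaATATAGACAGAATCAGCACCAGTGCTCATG

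**Figure D2:**
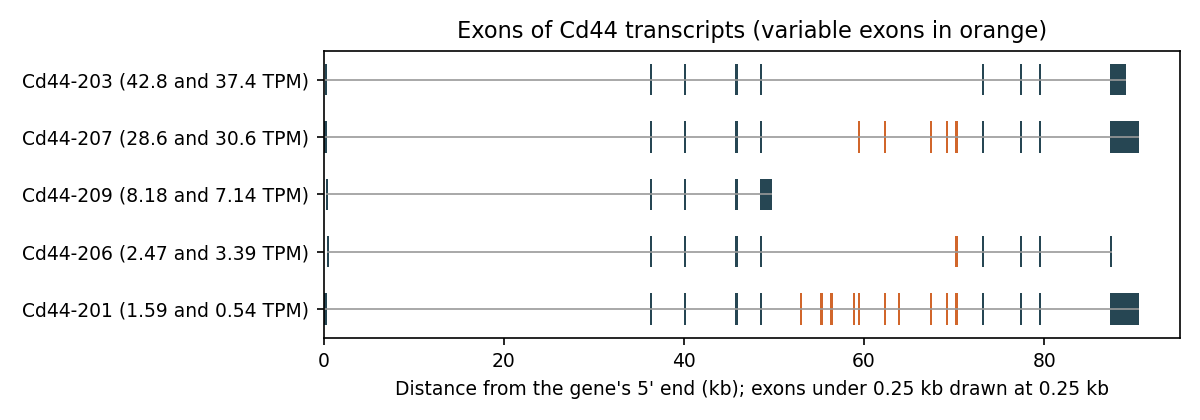
Exons of 5 Cd44 transcripts by distance in kb from the 5′ end of the gene, with variable exons in orange, exons under 0.25 kb drawn at 0.25 kb, and each transcript's TPM in library 1 and library 2 beside its name. Cd44-203 has no variable exon, Cd44-207 has 5 of them and a longer last exon, and Cd44-201 has all 10.

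Cd177, which encodes a GPI-anchored surface protein of neutrophils (chr7:24743983-24760311, minus strand), was the highest of the 7. It had 99.07 TPM (24700 counts) in library 1 and 107.69 TPM (30386 counts) in library 2, a mean of 103 ± 6.10 TPM (SD, n = 2), rank 355. The single transcript listed, Cd177-201, is coding and took 100% in both. In human neutrophils CD177 binds PECAM-1 and presents proteinase 3 beside the integrin Mac-1. Per length, Cd177 stood at 16.3 times Pecam1 in library 1 and 17.3 times in library 2.

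Pecam1 (chr11:106654217-106750628, minus strand), an adhesion molecule of endothelium, platelets and leukocytes, had 6.07 TPM (1805 counts) in library 1 and 6.22 TPM (2087 counts) in library 2. The mean was 6.14 ± 0.106 TPM (SD, n = 2), rank 5365. It was 19.0 times Selp in library 1 and 11.3 times in library 2. All 10 endothelial markers lay below it in both libraries, among them Cdh5 at 0.14 TPM in library 1 and 0.1 TPM in library 2.

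Pecam1 reads were spread over several coding transcripts that differ in the exons of the cytoplasmic tail. Coding transcripts held 98.8% of the Pecam1 TPM in library 1 and 98.4% in library 2. Pecam1-202, with exon 14 and without exon 15, held 29.95% in library 1 and 37.80% in library 2. Pecam1-203, which has neither exon, held 27.77% in library 1 and 16.88% in library 2. Pecam1-201, with exon 14 and another last exon, held 20.39% and 29.01%. That last exon of 228 bases opens with the 23 bases of exon 15 and reads on beyond them. Pecam1-204, with exon 14 and with exon 15 as a separate exon, held 15.34% and 12.62%.

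Pecam1-205, a coding transcript that ends before exon 14, had 0.04 TPM in library 1 and 0 in library 2 and was not grouped. Grouped by structure, transcripts with exon 14 (57 bases) held 71.7% of the remaining Pecam1 coding TPM in library 1 and 82.8% in library 2. The deposited TPM intervals are wide for these transcripts and overlap between the libraries for Pecam1-202 (0.507 to 2.47 TPM in library 1, 1.65 to 2.78 TPM in library 2) and Pecam1-203 (0.967 to 2.57 TPM and 0.713 to 1.40 TPM). They do not overlap for Pecam1-201, at 1.01 to 1.45 TPM in library 1 and 1.54 to 2.05 TPM in library 2. The tails are printed because exon 14 carries a tyrosine motif through which PECAM-1 recruits phosphatases. All 3 are on the minus strand of mm10 from the M21 transcripts, within chr11:106655136-106679572. Capitals mark exon 14.
Pecam1-202: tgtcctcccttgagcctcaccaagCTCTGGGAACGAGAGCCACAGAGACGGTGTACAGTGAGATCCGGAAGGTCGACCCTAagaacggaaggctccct
Pecam1-203: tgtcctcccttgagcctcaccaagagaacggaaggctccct
Pecam1-204: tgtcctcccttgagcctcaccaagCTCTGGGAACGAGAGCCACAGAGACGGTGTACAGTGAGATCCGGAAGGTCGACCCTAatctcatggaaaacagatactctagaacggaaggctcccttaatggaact

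Cd47, which marks cells as self to phagocytes through SIRP alpha (chr16:49800533-49915010, plus strand), had 35.16 TPM (8266.32 counts) in library 1 and 35.74 TPM (7934.37 counts) in library 2. The mean was 35.5 ± 0.410 TPM (SD, n = 2), rank 1109. Both listed transcripts are coding. The shorter Cd47-202 held 61.4% in library 1 and 70.1% in library 2, and the longer Cd47-201 held 38.6% and 29.9%. By counts the longer form led, with 6874.9 counts in library 1 and 6130.85 in library 2, against 1391.42 and 1803.52 for Cd47-202. The deposited lengths are 867 bases for Cd47-202 and 5277 for Cd47-201, and M21 gives 1175 and 5250 and lists 10 Cd47 transcripts. Cd47 was the one gene of the 7 whose gene counts were not whole numbers, as happens where estimated counts divide reads among genes. Which genes shared its reads was not tested.

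Cd9 (chr6:125460266-125494791, minus strand), a tetraspanin abundant on platelets, had 18.39 TPM (1851 counts) in library 1 and 17.98 TPM (2020 counts) in library 2. The mean was 18.2 ± 0.290 TPM (SD, n = 2), rank 2306. The coding Cd9-201 held 100% in library 1 and 98.5% in library 2, where the noncoding Cd9-203 took 17 counts, against 0 in library 1. The antisense gene Gm28809 overlaps Cd9 and had 11 counts in library 1 and 0 in library 2.

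**Figure D3:**
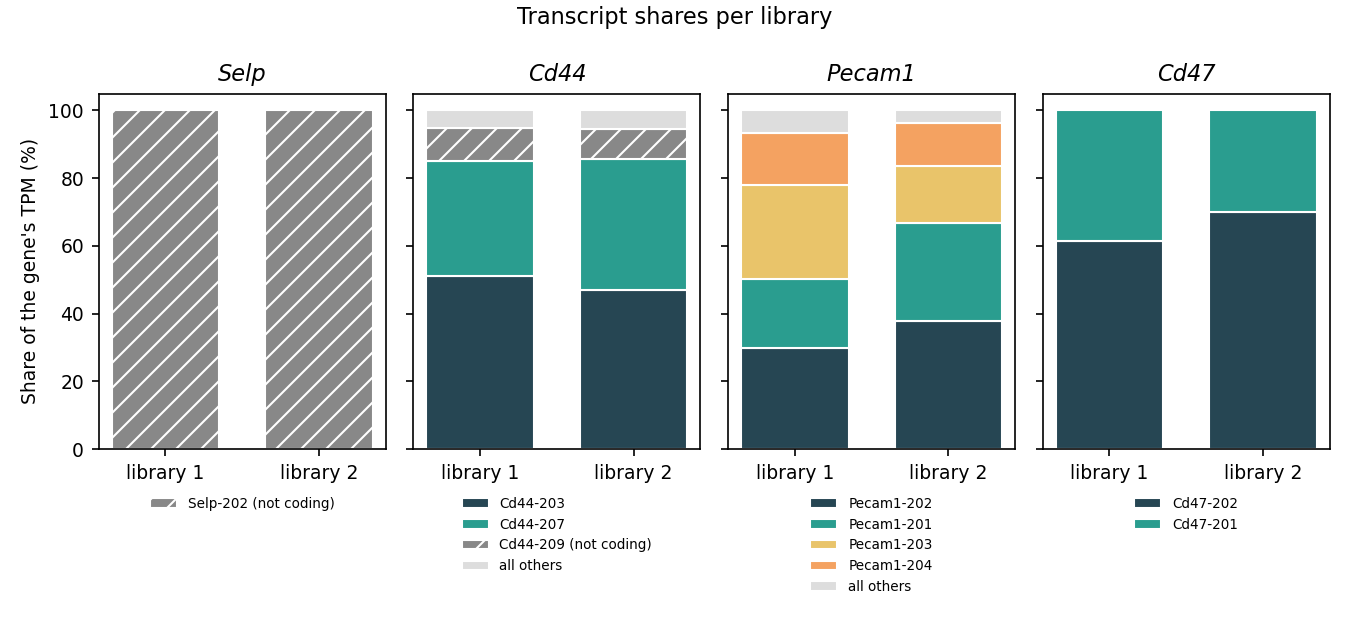
Share of each gene's TPM in percent given to its transcripts in library 1 and library 2 for 4 of the genes, hatched where the transcript is not coding. Selp is wholly Selp-202, Cd44-203 leads Cd44, and Pecam1 is divided among 4 main transcripts.

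Next, library 1 was set against library 2. Of the 7 genes, 6 passed the two-sided exact binomial test on expected counts at an adjusted p of 0.05, against a background of 65.6% of the 12081 coding genes tested. With most genes called, the count of 6 is not a result about these genes. The test holds counting error alone and compares 2 libraries, not conditions. None of the 7 reached a 2-fold ratio, against 9.86% of all genes tested.

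Cd47 had the largest ratio among the well-counted genes, with a log2 of 0.31 for library 1 over library 2 (95% interval of counting error 0.26 to 0.35, exact binomial test, Benjamini-Hochberg adjusted p = 9.9e-40). The Cd47 ratio had the opposite sign on the TPM scale, with a log2 of -0.02 (adjusted p = 0.35, exact binomial test). The mean effective length of Cd47 was 2347 bases in library 1 and 1948 in library 2, and on the TPM scale the median log2 ratio of all genes was -0.07. Cd44 and Cd9 stood at 0.12 each, with adjusted p of 3.7e-23 and 0.017 in the exact binomial test, and Cd9 did not pass on the TPM scale (0.03, adjusted p = 0.54, exact binomial test). Selplg fell by 0.15 on the log2 scale (adjusted p = 9.8e-16, exact binomial test) and Cd177 by 0.05 (adjusted p = 5.4e-05, exact binomial test). Selp had a log2 ratio of -0.69 (interval -1.30 to -0.11, adjusted p = 0.027, exact binomial test), resting on 38 counts in library 1 and 73 in library 2. Pecam1 did not pass, at 0.04 (interval -0.05 to 0.13, adjusted p = 0.50, exact binomial test).

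Against all genes tested, these ratios were small to moderate in size. The median absolute log2 ratio over all genes was 0.20. Absolute ratios of Pecam1, Cd177, Cd9, Cd44 and Selplg exceeded those of 10.9%, 15.04%, 32.0%, 32.5% and 39.3% of genes, and Cd47 and Selp exceeded 63.9% and 85.3%. With an assumed biological coefficient of variation of 0.1 in edgeR's exact test, none of the 7 passed, also at an unadjusted p of 0.05, while 1556 genes did after adjustment.

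**Figure D4:**
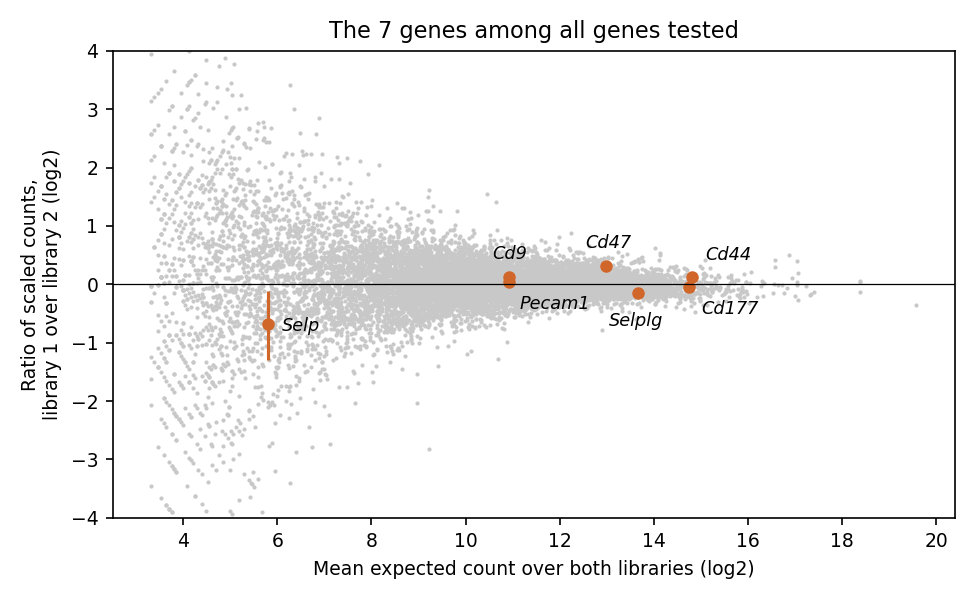
Log2 ratio of scaled counts, library 1 over library 2, against the log2 mean expected count, with all genes tested in grey, the 7 genes in orange and 95% counting intervals as lines. 243 of 12081 genes lie outside the drawn range; Selp is the one gene of the 7 with a wide interval.

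The other genes of these pathways were taken from 11 lists. Of 126 genes with a row, counted once each, 78 reached 1 TPM in both libraries. Of 107 that could be tested between the libraries, 71 passed the exact binomial test (66.4%), 40 higher and 31 lower in library 1. Without the 7 genes, 66 of 101 passed (65.3%), 38 higher and 28 lower in library 1. Both shares are near the background of 65.6%.

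Sele, the endothelial selectin, had 13 counts in library 1 and 0 in library 2. Of 12 proteins that can carry selectin ligands, 8 reached 1 TPM in both libraries, and the list median was 9.63 TPM. Between the libraries, 6 of the 8 tested passed, 4 higher and 2 lower in library 1. Cd24a, a GPI-anchored mucin-like protein, was above Cd44, at 131.79 TPM in library 1 and 113.26 TPM in library 2. Spn, the gene of the sialomucin CD43, lay between Cd44 and Selplg, at 60.82 TPM in library 1 and 66.04 TPM in library 2. Emcn, Podxl, Madcam1 and Glycam1, carriers of endothelium or high endothelial venules, had 0 counts in both libraries.

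Binding of P-selectin to PSGL-1 depends on sugars and sulfate added to the protein. Of 24 genes of that modification, 20 reached 1 TPM in both libraries, with a median of 3.70 TPM. Of the 20 that could be tested, 15 passed the exact binomial test, 8 higher and 7 lower in library 1. C1galt1c1, the chaperone of core 1 O-glycan synthesis, led at 101.3 TPM in library 1 and 130.41 TPM in library 2. Galnt1, which starts O-glycans, had 29.95 and 36.01 TPM, and the galactosyltransferase B4galt5 had 16.54 and 14.28 TPM. Tpst2, which sulfates tyrosines of PSGL-1, had 11.41 TPM in library 1 and 18.01 TPM in library 2. Fut9, Chst2 and Chst4 had 0 counts in both.

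Among linkers of CD44, CD43 and PSGL-1 to the cytoskeleton, 5 of 8 genes reached 1 TPM in both libraries, with a median of 14.9 TPM. Of the 8 tested between the libraries 7 passed, 4 higher and 3 lower in library 1. The ERM proteins that tie membrane receptors to actin led: Msn at 104.54 TPM in library 1 and 81.24 TPM in library 2, Rdx at 40.43 and 44.8 TPM, and Ezr at 43.63 and 36.14 TPM. Snx20, a sorting nexin that binds PSGL-1, had 16.72 TPM in library 1 and 18.99 TPM in library 2. Of the 10 genes of ectodomain shedding, 8 reached 1 TPM in both libraries, with a median of 11.4 TPM, led by Mmp9 at 78.5 TPM in library 1 and 59.47 TPM in library 2, with the sheddases Adam17, at 18.36 TPM in library 1 and 20.45 TPM in library 2, and Adam10, at 14.85 and 14.08 TPM, also among its 4 highest. Mmp9 is also one of the neutrophil markers. All 10 were tested and 8 passed, 4 higher and 4 lower in library 1.

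The hyaluronan genes were low around Cd44. Of 14, 2 reached 1 TPM in both libraries, with a list median of 0.158 TPM, and 4 of 10 tested between the libraries passed, 3 higher and 1 lower in library 1. Hmmr, a hyaluronan-binding protein of the mitotic spindle, had 20.85 TPM in library 1 and 21.53 TPM in library 2, and Layn, a hyaluronan receptor, had 2.24 and 2.46 TPM. Next came Lyve1 and Tnfaip6, both under 1 TPM in each library, and Has1 and Itih4 had 0 counts in both.

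Of 9 partners of CD47 with a row, 6 reached 1 TPM in both libraries, with a median of 3.72 TPM. Of 8 tested 5 passed, 4 higher and 1 lower in library 1. Sirpa, the gene of its receptor SIRP alpha, had 89.67 TPM in library 1 and 89.3 TPM in library 2. The ligand gene Thbs1 (thrombospondin) had 9.35 and 9 TPM, and the other leading members were Ubqln1 and Qpct, the last encoding a glutaminyl cyclase. Of 14 signalling and junction partners of PECAM-1, 8 reached 1 TPM, with a median of 3.49 TPM, and 6 of 10 tested passed, 2 higher and 4 lower in library 1. Ptpn6, the phosphatase SHP-1, had 250.57 TPM in library 1 and 280.12 TPM in library 2, followed by Cd177, the kinase Fes and the phosphatase Inpp5d at 36.69 and 24.08 TPM. Jam2, Jam3 and Esam, junction proteins of endothelium, had 0 counts in both.

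Of 5 CD177 partners, 4 reached 1 TPM in both libraries, with a median of 24.8 TPM. All 5 were tested and 2 passed, both higher in library 1. The Mac-1 chains Itgb2 and Itgam had 103.99 and 88.73 TPM in library 1, and 109.73 and 83.64 TPM in library 2. Prtn3, the gene of proteinase 3, had 24.17 TPM in library 1 and 25.44 TPM in library 2. Among 19 tetraspanins and CD9 partners, 12 reached 1 TPM, with a median of 6.21 TPM, and Cd9 was the fifth by mean TPM. All 19 were tested and 12 passed, 6 higher and 6 lower in library 1. Cd53, a leukocyte tetraspanin, led at 159.45 TPM in library 1 and 189.47 TPM in library 2, followed by Itgb1, Tspan14 and Cd37.

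Of 11 genes of marrow homing, 7 reached 1 TPM in both libraries, with a median of 23.9 TPM. Of 10 tested 7 passed, 4 higher and 3 lower in library 1. The chemokine receptor Cxcr4 had 79.79 TPM in library 1 and 84.24 TPM in library 2, a mean close to that of Cd44. Selplg came next, and then Itga4, the alpha chain of the VCAM-1 receptor, at 49.91 TPM in library 1 and 46.73 TPM in library 2. Ackr3 had 0 counts in both.

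**Figure D5:**
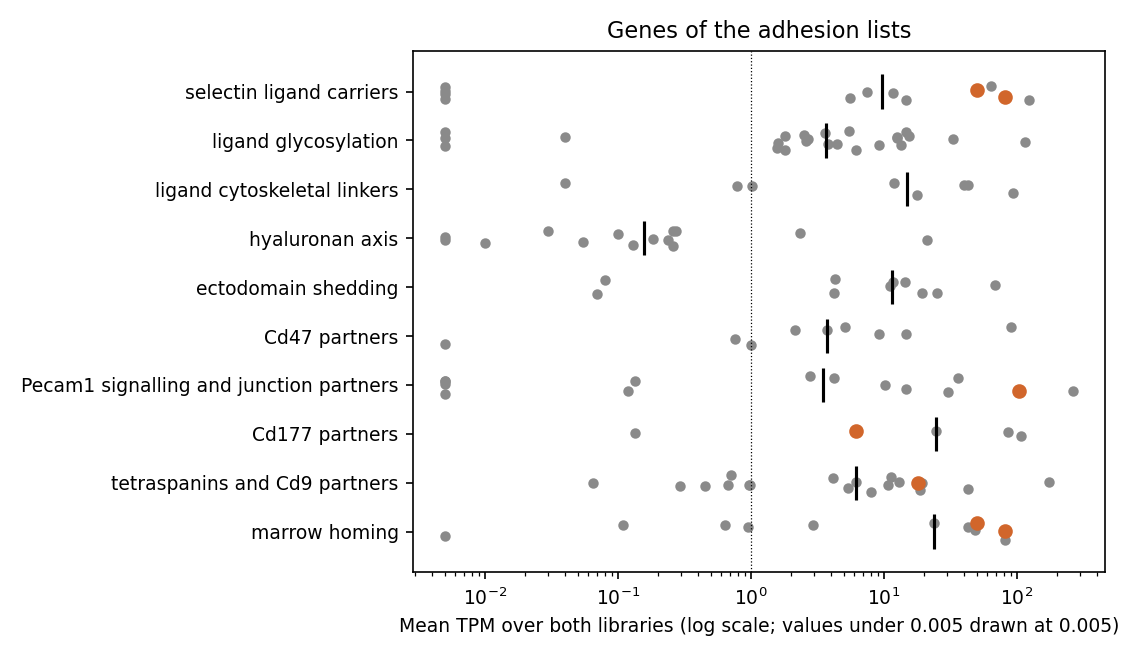
Mean TPM over both libraries for each gene of 10 of the lists, on a log axis with values under 0.005 drawn at 0.005, a dotted line at 1 TPM, black bars for list medians and those of the 7 genes that the lists hold in orange. The carriers Cd44 and Selplg lie among the highest genes of their lists, and most hyaluronan genes lie under 1 TPM.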

How the data were processed

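Mapping used mm10 and GENCODE M4, per a deposited text file that comes with both libraries. Which aligner and quantifier were run, and whether strand was used, is not given in the sources used here. Expected counts, as deposited, are estimated counts per gene and transcript. The deposited TPM values are per length over all rows of a table, and the deposited FPKM values, not used for results, are scaled by length and library. The percent of a gene's TPM given to each transcript, the TPM intervals and the effective lengths are the authors' deposited values. Symbols, gene types and structures came from GENCODE M21 on the same build; 42462 of 43346 mouse IDs matched among 69691 rows.

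Means ± SD and list counts were computed with pandas 2.3.3. Expected counts were rounded and scaled by TMM (edgeR 4.0.16, R 4.3.3; factors 1.01 and 0.995). Coding genes averaging at least 10 counts were compared between libraries by a two-sided exact binomial test with Benjamini-Hochberg adjustment at 0.05. The simulated counts on which the test was tried held counting error alone, so they say nothing of other variation between libraries. DESeq2 1.42.0 size factors were an alternative. With 1 library a side, quasi-likelihood fits were not possible.

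The members and lists were chosen with earlier results of these data known. The text names all 7 genes, up to 4 genes with the highest mean TPM of each list, list genes at 0 counts in both libraries, and transcripts at 10% or more. Cdh5, Sele, Cd44-201, Cd44-202, Cd44-206, Cd44-209, Cd9-203, Pecam1-205, Selp-205 and the overlapping antisense genes were named after their values were seen. Rhce had no row. Some genes that the rule takes are left unnamed; they stay in the counts and medians.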

Additional observations from a re-analysis of the deposited data

How the results depend on the processing

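The 11 lists, the order and the ratios rest on 2 libraries, and low counts limit Selp most. No paired analysis was possible because there is 1 group. Of the alternative values, 122 stayed on the same side of their threshold or within their spread, 19 moved, 7 no longer passed and 2 changed sign. For levels and transcript shares, either library alone always lies within the SD of the 2 libraries, so those values say nothing of stability. TPM was also rescaled to nuclear protein-coding genes, which removes all other rows from the total. Cd177 then stood at 407.3, Cd44 at 323.1, Selplg at 198.6, Cd47 at 139.9, Cd9 at 71.9, Pecam1 at 24.2 and Selp at 1.69 TPM. Selp thus no longer lay under 1 TPM, but every coding gene of a library rose by the same factor and kept its rank there. With coding transcripts alone, Cd44 stood at 74.0 TPM and Selp at 0. By counts without length, 3 of the 7 genes kept their place in the order. With the assumed coefficient of variation of 0.1 in edgeR's exact test the log2 ratios of Cd177 (-0.0525), Cd44 (0.12), Selplg (-0.15), Cd47 (0.31), Cd9 (0.12) and Selp (-0.69) no longer passed, with adjusted p from 0.27 to 0.96, leaving 0 of the 7 genes, also at an unadjusted p of 0.05, and 1556 genes in all. On the ratio of deposited TPM the sign turned for Cd47 (-0.0236) and Pecam1 (-0.0352), neither past the test, and Cd9 (0.0326) no longer passed. That scale moved the median log2 ratio of all genes to -0.07. Genes at a 2-fold ratio numbered 2424 with no count filter and 211 at a mean count of 100 or more, where Selp could not be tested. By share of expected counts, Cd44-203 held 38.8%, Cd44 coding transcripts 95.2%, Cd47-202 19.8% and Pecam1 coding transcripts 99.1%, since longer transcripts take more reads. By the deposited posterior mean share Selp-202 held 78.6%.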
